A study of Mus musculus with 6 samples.

Results

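The transcripts of Hdac6 and of the other zinc-dependent deacetylases were examined in CD4+CD25+ regulatory T cells (Treg) of mice that lack HDAC6 and of wild-type mice. Members were all probe sets whose platform annotation names a single gene out of Hdac1, Hdac2, Hdac3, Hdac5, Hdac6, Hdac7, Hdac9 and Hdac11. They came to 10 probe sets of 8 genes, out of 22626 probe sets tested and 12393 genes. The RefSeq gene table lists 11 such Hdac genes in the mouse. The other 3 (Hdac4, Hdac8 and Hdac10) had no probe set in the annotation used, alone or with other genes, so a change in them could not be seen. The comparison asked whether other deacetylase transcripts were higher or lower in cells without HDAC6.

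The arrays came from Treg of HDAC6 knockout mice (3 arrays) and from Treg of wild-type mice of the C57BL6 strain (3 arrays). Magnetic separation gave both sets of cells, and no treatment was named for either. The strain of the knockout, the part of the gene that was deleted, the ages, the purity and whether a sample pooled several animals were not given in the sources used here. The design text calls the samples independent, and p-values measure the spread between these samples. The deposited values are log2 intensities, normalized by the authors with RMA (robust multi-array averaging).

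Zinc-dependent deacetylases remove acetyl groups from lysines and fall into classes. Class I enzymes (Hdac1, Hdac2, Hdac3) sit in nuclear corepressor complexes and act on histones. Class IIa enzymes (Hdac5, Hdac7, Hdac9) have weak catalytic activity, bind MEF2 transcription factors, and leave the nucleus when protein kinases phosphorylate them and 14-3-3 proteins dock on the new sites. Hdac6, of class IIb, works mostly in the cytoplasm, where tubulin, cortactin and the chaperone HSP90 are among its substrates, and it binds ubiquitin. Hdac11 is the only class IV enzyme. In Treg, HDAC inhibitors and the loss of single deacetylases are known to alter the acetylation and function of Foxp3.

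The start regions of Hdac6 and Hdac5 are shown, Hdac6 because it is the targeted gene and Hdac5 as 1 of the 3 member windows with a match to the frame of the MEF2 element, the DNA site through which class IIa enzymes act, and the 1 of them with only A or T in its middle. The sequences are RefSeq windows of build GRCm38.p6, from 250 bases before to 50 bases after the annotated start, written 5′ to 3′ on the strand of the gene. Hdac6 lies at chrX:7947840-7948139 on the minus strand and Hdac5 at chr11:102230123-102230422 on the minus strand. Capitals mark matches, on either strand, to the GC box GGGCGG, the CCAAT box CCAAT, the E-box CACGTG and the frame of the MEF2 element, CTANNNNTAG.
Hdac6: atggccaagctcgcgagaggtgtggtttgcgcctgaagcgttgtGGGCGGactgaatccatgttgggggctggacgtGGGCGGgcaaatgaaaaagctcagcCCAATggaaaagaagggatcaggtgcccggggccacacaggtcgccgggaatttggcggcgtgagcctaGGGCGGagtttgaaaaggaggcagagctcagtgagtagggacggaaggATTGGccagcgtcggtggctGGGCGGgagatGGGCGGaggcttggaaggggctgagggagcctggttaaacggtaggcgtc
Hdac5: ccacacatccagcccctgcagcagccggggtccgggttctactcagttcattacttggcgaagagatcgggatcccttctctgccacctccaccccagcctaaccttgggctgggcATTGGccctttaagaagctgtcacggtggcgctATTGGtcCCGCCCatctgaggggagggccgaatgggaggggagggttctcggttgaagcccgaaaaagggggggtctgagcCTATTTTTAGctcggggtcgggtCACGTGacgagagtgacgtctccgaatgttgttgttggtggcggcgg

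The Hdac6 window held 5 GC boxes, the last of them beginning at the start site (position 1), and 2 CCAAT boxes, at positions -148 and -31. At least 5 GC boxes were present in 2.71% of 32851 windows and at least 2 CCAAT boxes in 11.7%. In the Hdac5 window the MEF2 frame matched at position -20 and its 4 middle letters were all T, whereas 3.69% of windows held the frame at all and 0.557% held it with only A or T in the middle. The frame also matched in the Hdac2 window, at position -148, and in 1 window of Hdac9, at position -32, so 3 of the 10 member windows held it. The Hdac5 window also held 2 CCAAT boxes, 1 GC box and 1 E-box, and a CACGTG was present in 7.15% of windows. No marked matches overlapped. With 20 and 18 CpG pairs, the Hdac6 and Hdac5 windows lay above the median of 7. Of the 8 member genes, 6 had windows that were used, 10 in all. No window of Hdac1 was available. Windows of chromosome 18, which holds Hdac3, were left out of all these counts. The CpG count was 36 in the Hdac2 window and 0 and 3 in the windows of Hdac9. A match is a description of letters and not a shown binding site.

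**Figure D1:**
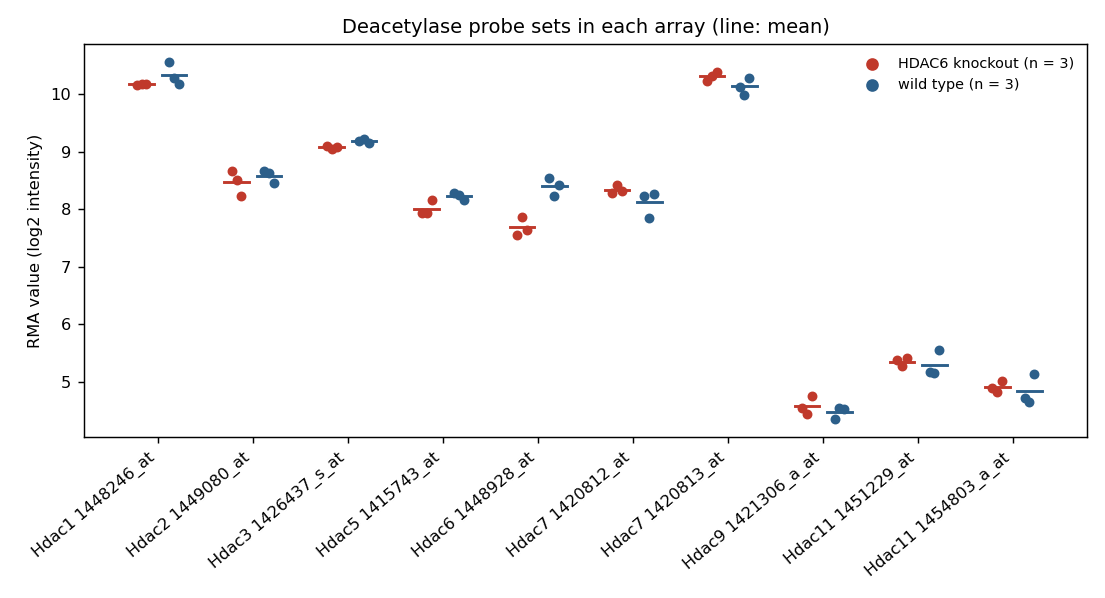
RMA values (log2 intensity, vertical axis) of the 10 deacetylase probe sets in 3 knockout and 3 wild-type arrays. Points are arrays and lines are means. The knockout points of Hdac6 lie below all of its wild-type points, and the Hdac9 and Hdac11 probe sets lie below a log2 value of 6 in both genotypes.

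Medians of the arrays ran from 6.22 to 6.27 and lower quartiles from 4.14 to 4.25. The Treg markers Foxp3 (10.18, 10.40 and 10.38 in knockout arrays, against 10.25, 10.21 and 10.33 in wild-type arrays) and Il2ra, which encodes CD25, lay far above these medians in every array. Ikzf2, also listed as a Treg marker, read from 5.98 to 6.38, near the medians. Xist read at most 4.10 in any array, and the Y-linked Eif2s3y was bright in all. Genotypes did not overlap for 3 of the 4 sex markers measured (75%, beside 18.6% of all genes), and 0 passed the test. Eif2s3y read 8.66, 9.40 and 9.31 in knockout arrays, against 9.62, 9.52 and 9.52 in wild-type arrays. It differed by -0.43, Uty by -0.41, Kdm5d by -0.31 and Xist by 0.27. Plasma cell markers differed between the genotypes: all 7 measured were higher in the knockout and 2 passed the test (Igha and Igk). Of all genes 0.161% passed. Genotypes did not overlap for 6 of the 7 (85.7%), beside 18.6% of all genes. The summed intensity of these 7 markers was 15.21 to 15.38 in the knockout and 13.83 to 14.26 in wild type (log2). It mostly follows Igha and Jchain, the brightest of them. The 7 measured B cell markers went both ways (4 up, 3 down, 0 past the test), with a summed intensity of 10.16 to 10.69 in the knockout and 10.55 to 10.98 in wild type. Of 8 myeloid markers measured, 3 were higher, 5 were lower and 0 passed the test. They summed to 11.50 to 11.85 in the knockout and 11.60 to 11.82 in wild type. That sum mostly follows Cd74 and H2-Eb1, with means of 11.18 and 9.18 over all arrays. The next brightest, Lyz2, had a mean of 6.98. Of the markers of Treg and T cells (9 measured), NK cells (3) and CD8 T cells (2) 0 passed either. Without overlap were 1 of 7 B cell (14.3%), 1 of 3 NK cell (33.3%) and 2 of 2 CD8 T cell markers (100%). So were 2 of 8 myeloid (25%) and 1 of 9 Treg and T cell markers (11.1%), beside 18.6% of all genes. These were Ms4a1 (-1.13), Gzma (-1.03), Cd8b1 (-0.37), Cd8a (0.25), H2-Eb1 (-0.30), Cd14 (-0.19) and Cd3d (-0.11). Of the plasma cell markers that did not pass, Tnfrsf17 (1.15), Sdc1 (0.64), Jchain (0.58) and Xbp1 (0.40) were without overlap. Of the NK cell markers 1 was higher and 2 were lower. RMA gives no zeros, so no marker was at 0. The part of these cells in the results below was not tested.

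Hdac6 had 1 probe set, 1448928_at, which read 7.54, 7.86 and 7.64 in knockout arrays, against 8.54, 8.23 and 8.42 in wild-type arrays. Every knockout array was below every wild-type array. The difference, knockout minus wild type, was -0.71 on the log2 scale with an SE of 0.11 and a 95% interval of -0.98 to -0.44, which is 1.64-fold lower. Limma's Benjamini-Hochberg adjusted p over probe sets was 0.0875, above the threshold of 0.05. An exact two-sided permutation test of 3 arrays against 3 gave p = 0.1, the smallest it can give. Of the 22626 probe sets, 114 had a larger fall than Hdac6. In the knockout the mean remained at 7.68 (SD 0.16, n = 3), above the arrays' medians. Where the probe set lies relative to the deleted part is not known here, so the remaining signal does not check the labels. In such bulk samples, fewer cells of a type and less RNA per cell cannot be told apart.

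No member passed the threshold: the count was 0 of 10 probe sets, where 0.194% of all probe sets passed. An unadjusted limma p under 0.05 was found for 2 of the 10, Hdac6 and Hdac5, against 10.6% of all probe sets. The call for Hdac6 depended on the variance model. With eBayes trend and robust settings its adjusted p was 0.0259, and over the alternatives tried the adjusted p ranged from 0.0259 to 0.318. The difference itself stayed between -0.80 and -0.63. Knockout and wild-type arrays did not overlap for 4 of the 10 member probe sets, against 17.2% of all probe sets. These 4 were Hdac6, Hdac3 and Hdac5, which were lower, and the dimmer probe set of Hdac7, which was higher.

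**Figure D2:**
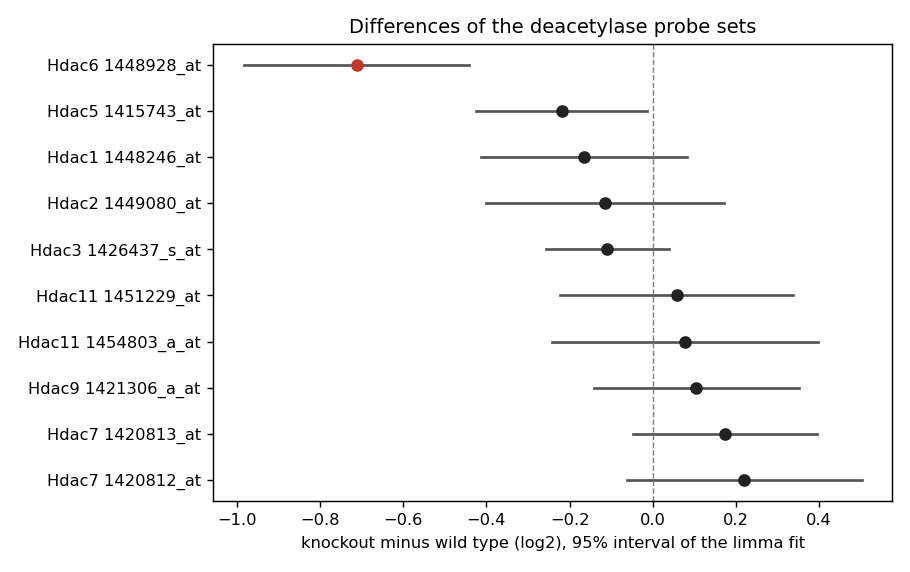
Differences of the 10 deacetylase probe sets, knockout minus wild type (log2, horizontal axis), with 95% intervals of the limma fit over 6 arrays. Hdac6 (red) stands at -0.71, and the other 9 probe sets lie between -0.22 and 0.22.

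Apart from Hdac6, 5 probe sets of 3 genes (Hdac7, Hdac9 and Hdac11) were higher and 4 probe sets of 4 genes (Hdac1, Hdac2, Hdac3 and Hdac5) were lower, none of them past the test. Their differences ranged from -0.22 to 0.22 with a median of 0.06, beside a median of -0.00121 over all probe sets. Limma's adjusted p ran from 0.438 to 0.904. Among the 9 intervals the highest upper bound was 0.50, a rise of 1.42-fold, and the lowest lower bound was -0.42, a fall of 1.34-fold. Those bounds were smaller than the 1.64-fold estimate of Hdac6. The near end of the Hdac6 interval, -0.44, was however smaller in size than the 0.50 bound. Whether any member's change differed from that of Hdac6 was not tested. Over all probe sets the median standard error of a difference was 0.0953.

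Among the class I genes, Hdac1, a catalytic subunit of the SIN3, NuRD and CoREST complexes, read 10.16, 10.18 and 10.17 in knockout arrays, against 10.56, 10.28 and 10.18 in wild-type arrays. The knockout arrays spanned 0.02, while wild type replicate 1 stood 0.28 above the next array. The difference was -0.17 (SE 0.11, adjusted p = 0.634 by limma), and it was -0.05 without wild type replicate 1. Hdac2, the close relative that shares those complexes, read 8.66, 8.51 and 8.23 in knockout arrays, against 8.65, 8.62 and 8.46 in wild-type arrays. Its highest and its lowest array were both knockout arrays, and the difference of -0.11 (SE 0.12, 95% interval -0.40 to 0.17) turned to 0.01 without knockout replicate 3 and was -0.21 without knockout replicate 1. Hdac3, the enzyme of the NCoR and SMRT complexes, read 9.10, 9.05 and 9.07 in knockout arrays, against 9.18, 9.21 and 9.15 in wild-type arrays. The genotypes did not overlap, and its arrays varied little. The pooled within-genotype SD was 0.0293, smaller than that of all but 1.94% of probe sets, whose median was 0.121. The difference was -0.11 (SE 0.06), with a limma adjusted p of 0.603. Its probe set carries the suffix that marks probes shared by several transcripts, so the value may not be of Hdac3 alone.

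Among the class IIa genes, Hdac5 was the member with the smallest p after Hdac6. It read 7.93, 7.93 and 8.16 in knockout arrays, against 8.27, 8.24 and 8.16 in wild-type arrays. Knockout replicate 3 and wild type replicate 3 were equal at 2 decimals, so the absence of overlap rests on a gap of 2e-05. The difference was -0.22 (SE 0.09, 95% interval -0.42 to -0.01), with a limma adjusted p of 0.438. Under the alternatives it stayed between -0.30 and -0.18, and its adjusted p between 0.279 and 0.705.

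Hdac7, the class IIa enzyme best known from thymocytes, where it represses Nr4a1, had 2 probe sets. The brighter, 1420813_at, read 10.23, 10.31 and 10.38 in knockout arrays, against 10.12, 9.99 and 10.29 in wild-type arrays. Wild type replicate 3 fell inside the knockout range. The dimmer, 1420812_at, read 8.28, 8.41 and 8.32 in knockout arrays, against 8.23, 7.85 and 8.27 in wild-type arrays, with every knockout array above every wild-type array and a gap of 0.02 between the genotypes. The differences were 0.17 (SE 0.09) and 0.22 (SE 0.12), with limma adjusted p of 0.574 and 0.580. Wild type replicate 2 was the lowest array on both probe sets, and without it the differences were 0.10 and 0.09. Both had upper bounds, 0.40 and 0.50, that leave room for a rise of 1.32-fold and 1.42-fold.

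Hdac9, which also exists as a form without a catalytic domain, read 4.54, 4.43 and 4.76 in knockout arrays, against 4.35, 4.54 and 4.52 in wild-type arrays. The genotypes overlapped and the difference was 0.11 (SE 0.11). It was 0.01 without knockout replicate 3, 0.18 without knockout replicate 2, and 0.04 when wild type replicate 1 was left out. Hdac11 had 2 probe sets. The first, 1451229_at, read 5.37, 5.26 and 5.41 in knockout arrays, against 5.16, 5.16 and 5.55 in wild-type arrays. The second, 1454803_a_at, read 4.88, 4.82 and 5.02 in knockout arrays, against 4.72, 4.64 and 5.13 in wild-type arrays. On both, wild type replicate 3 was the highest array and wild type replicate 2 the lowest. The differences were 0.06 and 0.08 (SE 0.12 and 0.14), and they fell to -0.01 and -0.02 without wild type replicate 2, and were 0.19 and 0.23 without wild type replicate 3. With no detection calls, expression of Hdac9 and Hdac11 in these cells is not established.

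The brightness of a probe set depends on its sequence as well as on the transcript, so the positions on the array do not rank the genes by abundance. By mean over the 6 arrays, Hdac1 stood at the 93.0th percentile of tested probe sets, the brighter Hdac7 probe set at the 92.8th and Hdac3 at the 84.1st. Hdac2 stood at the 77.0th, the dimmer Hdac7 probe set at the 73.1st, Hdac5 at the 71.6th and Hdac6 at the 70.5th. Hdac11 stood at the 40.03rd and 34.4th and Hdac9 at the 29.9th. The pair of Hdac7 probe sets shows how far probes of 1 gene can lie apart.

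Hdac6 lies on the X chromosome, as do Foxp3 and Gata1, and its neighbours were examined up to 10 genes on each side in the RefSeq order. Of these 20 genes 11 were measured, 5 of them higher and 6 lower in the knockout. None passed the threshold at the gene level, where 0.161% of genes did, and limma's lowest adjusted p was 0.499. For 0 of the 11 did the genotypes separate, against 18.6% of all genes, and 0 had an unadjusted p under 0.05. The median difference was -0.01. Gata1, the erythroid transcription factor, had the lowest value at -0.26 (SE 0.12): it read 7.68, 7.61 and 7.36 in knockout arrays, against 7.80, 7.63 and 7.99 in wild-type arrays. The difference was -0.16 when knockout replicate 3 and -0.17 when wild type replicate 3 was left out. Pcsk1n, an inhibitor of a prohormone convertase, had the highest at 0.16 (SE 0.20), which became -0.04 without knockout replicate 3 and 0.38 when knockout replicate 1 was left out. In this stretch Hdac6 was the gene with the largest difference.

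**Figure D3:**
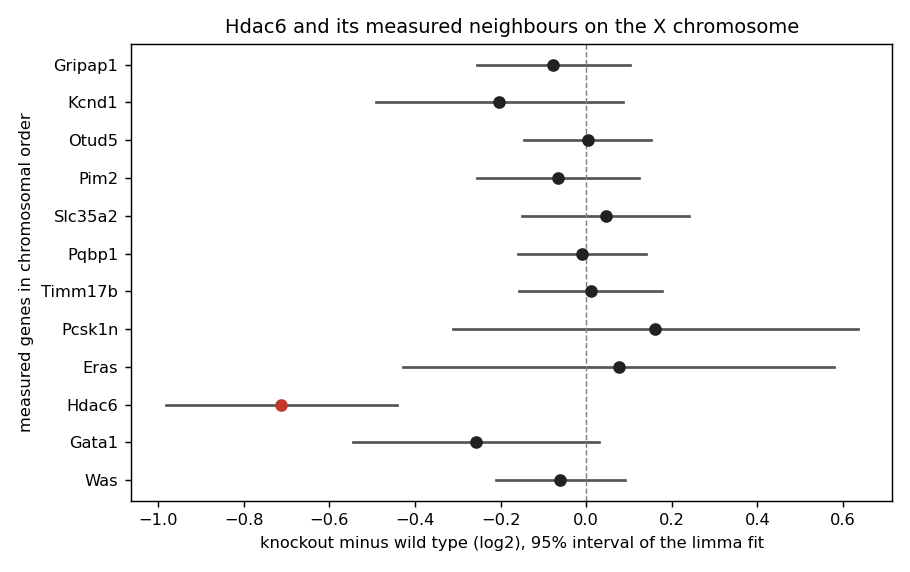
Differences, knockout minus wild type (log2, horizontal axis), with 95% intervals, of Hdac6 and its 11 measured neighbours in chromosomal order. Hdac6 (red) stands at -0.71, and its neighbours lie between -0.26 and 0.16.

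The 5 single-gene probe sets whose values were most like those of Hdac6 over the 6 arrays were 1 each of Afp, Zscan21, Snx30, Plxna3 and Eral1. Their Pearson's r with Hdac6 was 0.997, 0.988, 0.988, 0.988 and 0.986, given as a description. The arrays share the genotype split, and 322 of 20379 probe sets reached an r over 0.9. Afp, which encodes alpha-fetoprotein, read 4.11, 4.43 and 4.12 in knockout arrays, against 5.30, 4.94 and 5.17 in wild-type arrays, at the dim end of the scale. Its difference was -0.91 and limma's adjusted p was 0.0677, or 0.0247 with trend and robust settings. The others differed by -0.75, -0.44, -0.20 and -0.16, with adjusted p from 0.117 to 0.447. Among the members r with Hdac6 was 0.75 for Hdac3 and 0.73 for Hdac5, and it was -0.51 and -0.37 for the brighter and dimmer Hdac7 probe sets. With each genotype's mean removed, r was -0.77 for Hdac3, -0.07 for Hdac5 and 0.48 and 0.80 for the Hdac7 probe sets. None of these 4 kept a like value within genotypes. Afp was at 0.97, but it was picked for its r over these same arrays, so that value is not a separate result.

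Genes that work with the deacetylases were counted at the gene level, each by its brightest probe set, with p adjusted over genes. For the corepressor complexes that hold class I enzymes, 29 of 38 listed genes were measured. Of these 13 were higher and 16 lower, and 0 passed, beside 0.161% of all genes. An unadjusted limma p under 0.05 was found for 2 (6.90%), beside 11.2% of all genes. Their median difference was -0.01, beside 0.00 over all genes, and the range was -0.12 to 0.28. Genotypes separated for 5 of the 29 (17.2%), near the 18.6% of all genes. Mta3, a NuRD subunit, read 9.15, 9.12 and 9.21 in knockout arrays, against 8.74, 8.92 and 8.99 in wild-type arrays. Its difference was 0.28 (SE 0.08, adjusted p = 0.293), and a dimmer probe set also gave 0.28. Tbl1xr1, an exchange factor of the NCoR complex, differed by 0.18 (SE 0.07), although 1 of its 4 probe sets was lower. Sap30 of the SIN3 complex differed by 0.26 and the CoREST scaffold Rcor1 by -0.12.

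In the class IIa pathway 1 gene passed the threshold, and it was lower in the knockout. Prkd3, which encodes protein kinase D3 of the family that phosphorylates class IIa deacetylases and so sends them out of the nucleus, read 7.95, 8.13 and 8.10 in the knockout. In wild type it read 9.01, 8.80 and 8.89, so all knockout arrays were lower than all wild-type arrays. The difference was -0.84 (SE 0.09, 95% interval -1.04 to -0.63), or 1.79-fold lower, with a limma adjusted p of 0.0199. Over probe sets the adjusted p was 0.0178. A second probe set of Prkd3 was also lower: 8.15, 8.12 and 8.14 in knockout arrays, against 8.66, 8.88 and 8.69 in wild-type arrays. Its difference was smaller, at -0.61, with a limma adjusted p of 0.0515 over probe sets, above the threshold. The remaining one was dim in both genotypes (at most 4.17) and differed by -0.04.

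The Prkd3 call was lost when any 1 array was left out, with adjusted p from 0.0592 to 0.1003 and differences from -0.89 to -0.78. It was also lost with the replicate number as a block (0.109) and in the unmoderated test (0.205). The other protein kinase D genes did not pass. Prkd2, the family member best known from T cells, differed by 0.07 (SE 0.07, 95% interval -0.09 to 0.24), and its 5 probe sets ranged from -0.06 to 0.07. Prkd1 was at the bottom of the scale and differed by -0.06. Whether Prkd3 differed from Prkd2 in its change was not tested.

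**Figure D4:**
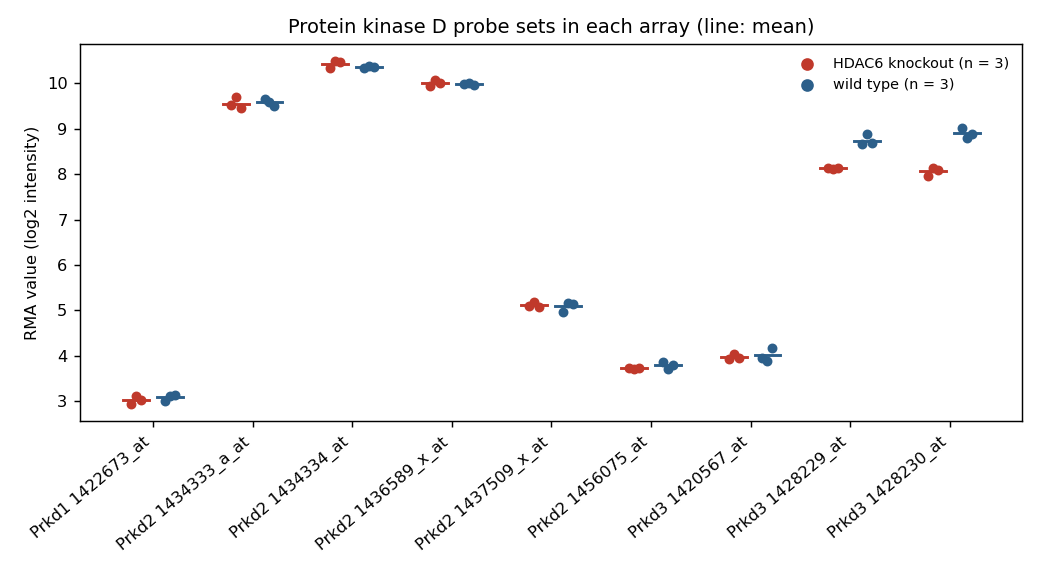
RMA values (log2 intensity, vertical axis) of all probe sets of Prkd1, Prkd2 and Prkd3 in 3 knockout and 3 wild-type arrays. Points are arrays and lines are means. On both bright Prkd3 probe sets the knockout arrays lie below the wild-type arrays, whereas the genotypes overlap on the Prkd2 probe sets.

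Prkd3 lies on chromosome 17. Of 582 measured protein-coding genes of that chromosome 3 passed the threshold, beside 0.161% of all genes. They lay in a stretch of 21 measured genes that begins with Lclat1 and ends with Prkd3. The ends of that stretch were set by called genes, so the count within it is no separate result. Those 3 were Lclat1, an acyltransferase gene, which rose by 0.91, the endosomal gene Ehd3, which fell by 1.20, and Prkd3. Their limma adjusted p was 0.0143 for Lclat1 and 0.0447 for Ehd3. The Lclat1 call was lost without knockout replicate 1 (adjusted p 0.0756), knockout replicate 2 (0.1003) or wild type replicate 2 (0.0722). The Ehd3 call was kept without wild type replicate 1 (0.0332) and lost without any other array (0.0614 to 0.175). Both calls were also lost with the replicate number as a block (0.0874 for Lclat1 and 0.123 for Ehd3) and in the unmoderated test (0.205 and 0.277). Mta3, named above, lies on the same chromosome, 11 measured genes beyond Prkd3.

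Of the 30 listed genes of the class IIa pathway 27 were measured, 10 higher and 17 lower, with 0 rises and 1 fall past the test. The median difference was -0.04 and the range -0.84 to 0.40. Genotypes separated for 9 of the 27 (33.3%), beside 18.6% of all genes, and 5 had an unadjusted p under 0.05, beside 11.2% of all genes. Ywhaz, which encodes the zeta isoform of 14-3-3, the proteins that hold phosphorylated class IIa enzymes in the cytoplasm, read 11.87, 11.79 and 11.67 in the knockout. In wild type it read 12.32, 12.55 and 12.28, above all knockout arrays. Its difference of -0.60 (SE 0.10) had a limma adjusted p of 0.0862, or 0.0160 with trend and robust settings. Its 7 probe sets did not all act together, since 5 were lower and 2 higher and they ranged from -0.68 to 0.22. Those at -0.60, -0.64 and -0.68 were close to each other and each lower without overlap between genotypes, but 0 passed. On the others, at -0.12, -0.11, 0.02 and 0.22, the genotypes overlapped. Those at -0.12, -0.11 and 0.02 carry suffixes for probes that may match other transcripts, so their values may not be of Ywhaz alone. The kinase gene Camk1d differed by -0.25 and Rfxank, an ankyrin-repeat factor of MHC class II genes, by -0.27, each without overlap between genotypes and without passing. Mef2a, a MEF2 factor that class IIa enzymes bind, was picked out after its values were seen. It differed by -0.23 (SE 0.07, adjusted p = 0.294), and 4 of its 5 probe sets were lower.

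**Figure D5:**
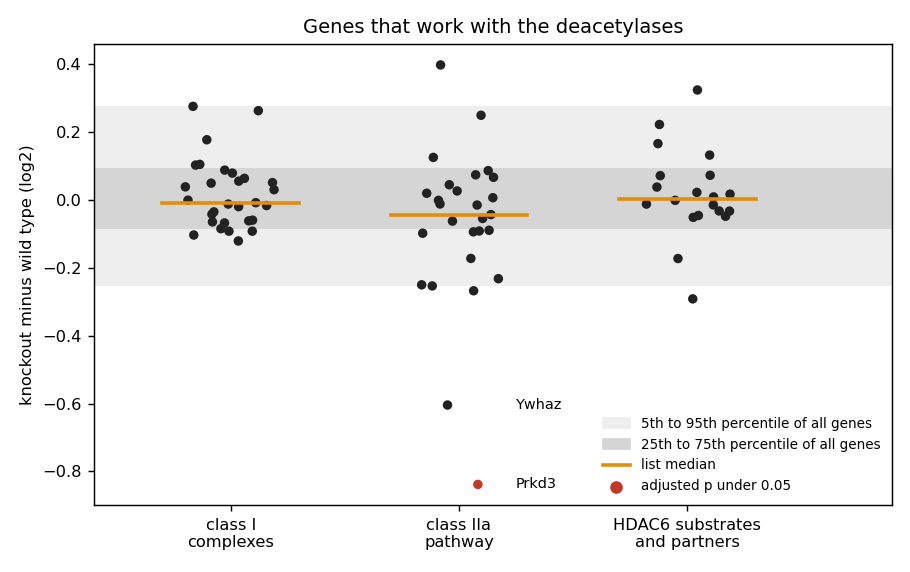
Differences, knockout minus wild type (log2, vertical axis), of the measured genes of 3 lists: 29 genes of class I complexes, 27 of the class IIa pathway and 20 HDAC6 substrates and partners. Points are genes, orange lines are list medians, and grey bands span the 5th to 95th and the 25th to 75th percentile of all genes. Prkd3 (red, at -0.84) is the 1 gene past the threshold, and Ywhaz (-0.60) is the next lowest.

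Of 30 listed substrates, partners and opposing enzymes of HDAC6, 20 were measured, 10 higher and 10 lower in the knockout, with a median of 0.00 and a range from -0.29 to 0.32. None passed the threshold, 2 (10%) had an unadjusted limma p under 0.05, beside 11.2% of all genes, and the genotypes separated for 4 (20%), near the 18.6% of all genes. The tubulin genes Tuba1a and Tuba4a, whose protein class is deacetylated by HDAC6, were lower without overlap. Tuba1a read 11.14, 11.23 and 11.08 in knockout arrays, against 11.31, 11.57 and 11.44 in wild-type arrays. That is a difference of -0.29 (SE 0.09, limma adjusted p = 0.290). Its probe set carries the suffix x_at, for probes that may match other sequences, so the value may not be of Tuba1a alone. The same limit holds for the probe sets named for Afp and Eral1 (x_at) and for Tbl1xr1, Rcor1 and Rfxank (s_at). Tuba4a differed by -0.17 (SE 0.06, adjusted p = 0.377). Aurka, a mitotic kinase that activates HDAC6 at the cilium, differed by 0.32 (SE 0.14), or by 0.21 when knockout replicate 1 and 0.20 when wild type replicate 3 was left out, and Hsp90aa1, the inducible HSP90, by 0.22 (SE 0.11), both with overlapping genotypes. These arrays measure transcripts and not acetylation.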

How the data were processed

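Total RNA of 3 HDAC6 knockout and 3 wild-type Treg samples was amplified and labelled with biotin for 1-colour arrays, per the labels. The authors deposited 1 table of log2 values for 22690 probe sets; they came from RMA, per the submitters' processing notes, with no version given. The log2 scale was read from the value range. RMA compresses differences at both ends of the scale. The 64 control probe sets were left out, and no further normalization was applied. Genes were named from the platform annotation, updated by gene ID through RefSeq (GRCm38.p6, 20351 probe sets matched); 20380 probe sets carried 1 symbol, 691 several and 1555 none.

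Genotypes were compared with limma 3.58.1 (R 4.3.3; lmFit, eBayes, genotype as the only term, two-sided) over all 22626 probe sets, p-values adjusted after Benjamini and Hochberg, threshold 0.05. For lists and neighbours each gene took its probe set with the highest mean, and p-values of the same fit were adjusted over 12393 genes. The members and lists were chosen with earlier results of these data known. Named genes were all members, the neighbours, up to 4 genes of each list by smallest p, any list gene past the threshold, and the 5 probe sets most like Hdac6 by Pearson's r; of the neighbours, those with the lowest and highest difference are given singly. Alternatives tried were trend and robust settings, median centring, quantile normalization, a replicate block, array weights, a filter on dim probe sets, an unmoderated test, another probe set per gene, and leaving out each array. The fit was tested on simulated data. Slides and scan dates were not used here, and no batch was tested. The number of arrays limits the precision. Figures were drawn with matplotlib 3.10.9.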

Additional observations from a re-analysis of the deposited data

How the results depend on the processing

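Across the alternatives Hdac6 stayed lower in the knockout (-0.80 to -0.63), and its limma adjusted p was under the threshold with trend and robust settings (difference -0.71, adjusted p = 0.0259, the 1 member call among all settings) and over it in all others. Leaving out 1 array gave -0.80 to -0.64. The other 9 member probe sets passed in 0 of 122 refits under an alternative (lowest adjusted p 0.279), and 118 refits kept the direction. The 4 reversals were of small values and came from leaving out 1 array: the Hdac2 differences ranged from -0.21 to 0.0056, and those of the Hdac11 probe sets from -0.0080 to 0.19 and from -0.015 to 0.23. Pcsk1n, a neighbour of Hdac6, likewise ranged from -0.042 to 0.38. The 44 probe sets past the threshold became 27 with the replicate block, 147 with trend and robust settings, 86 with array weights and 0 in the unmoderated test, and 5 to 51 without 1 array (20 without knockout replicate 1, 5 without knockout replicate 2, 11 without wild type replicate 2). The 20 genes became 83 with trend and robust settings, 34 with each gene's most variable probe set, 0 in the unmoderated test, and 3 to 27 without 1 array (8 without knockout replicate 1, 3 without knockout replicate 2, 3 when wild type replicate 2 was omitted). The cause was not tested. At an unadjusted p under 0.05 the unmoderated test left 2239 probe sets, and 1353 by gene. The samples share only replicate numbers: same-numbered knockout and wild-type arrays deviated together with r of 0.22, -0.09 and 0.10, and not every array correlated best with its own number. The replicate block gave 27 calls and 0 member calls, with Hdac6 at an adjusted p of 0.185.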
